A study of Saccharomyces cerevisiae with 12 samples.

Results

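The 33 genes described here encode proteins of the large subunit of the mitochondrial ribosome in *Saccharomyces cerevisiae*. They were chosen by name, as 32 genes of the *MRPL* series and *MRP7*. No measured value entered this rule, but earlier results of these data were known when it was set. All 33 were found among the 5917 coding sequences measured, and all 33 passed the filter on low counts in every comparison. The data are RNA-seq of whole cultures in 12 libraries, with 3 replicate cultures in each of 4 groups. The groups were mrn1Δ cells and wild-type cells in respiratory growth, and mrn1Δ cells and wild-type cells in fermentative growth. Wild-type was BY4741, a haploid laboratory strain of mating type a, and mrn1Δ was the same strain with a kanamycin selection cassette integrated at *MRN1*, which encodes an RNA-binding protein. The fermentative cultures were in log phase at an OD600 of 0.6 in rich medium with 2% glucose, and the respiratory cultures had been moved from such medium to rich medium with 2% ethanol and 2% glycerol 20 minutes before harvest. The study asked how Mrn1 changes mRNA levels in each medium, and the shift in each genotype and the difference between the shifts follow from the same design. Because RNA came from whole cultures, fewer cells expressing a gene and less of its RNA per cell cannot be told apart.

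The mitochondrial ribosome makes the few proteins that the mitochondrial genome encodes, most of which are membrane subunits of the respiratory chain and the ATP synthase. Its RNA is transcribed in the mitochondrion, whereas nearly all of its proteins, including every one described here, are encoded in the nucleus, made in the cytosol and imported. Of the 33 genes, 20 encode proteins with relatives in bacterial ribosomes (universal or bacterial-type), such as *MRPL1* of the L1 stalk, *MRP7* near the peptidyl transferase centre and *MRPL4* and *MRPL40* at the exit of the peptide tunnel. The other 13 encode proteins specific to mitochondrial ribosomes, such as *MRPL17*, *MRPL20* and *MRPL28*. In yeast, many mRNAs for mitochondrial ribosomal proteins are bound by Puf3, a Pumilio-family protein that recognises an element after the stop codon and controls the decay, localisation and translation of these mRNAs according to the carbon source.

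The Puf3 element TGTANATA, read on the sense strand of the R64 reference, was found within 200 bases downstream of the stop codon in all 33 genes. The same window held it in 841 of 5892 nuclear genes, which is 14.3%. Within 100 bases the counts were 29 of the 33 genes, or 87.9%, and 10.3% of nuclear genes. The 33 genes had 41 elements in all, with 1 element in 25 genes and 2 in 8 genes, and none of them lay within another annotated coding sequence. The elements began 13 to 165 bases after the stop codon with a median of 53, and 36 of the 41 lay within 100 bases. At the fifth base of the element stood A in 15 elements, T in 15, C in 10 and G in 1. The sites below belong to the genes on which the results turn. Those higher after the shift come first, of which *MRPL28* was called in mrn1Δ only. *MRPL20* and *MRPL50*, lower in both genotypes, follow. *MRPL33* is last, and it was called lower in wild-type only and not in every fit. Each site is shown 5′ to 3′ on the coding strand with 8 bases on either side, and capitals mark the element.

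MRPL24, nearer site (chrXIII:650859-650882, plus strand): ttttccccTGTATATAaaaaagca
MRPL24, farther site (chrXIII:650883-650906, plus strand): tatctgttTGTACATAtgtaggta
MRPL4 (chrXII:1015470-1015493, plus strand): ctctctccTGTAAATAtatatata
MRPL1, nearer site (chrIV:682671-682694, minus strand): tttttaatTGTATATAtatatata
MRPL1, farther site (chrIV:682622-682645, minus strand): taaaatcaTGTACATAcaaagtaa
MRPL38 (chrXI:131138-131161, plus strand): taaccaccTGTATATAttgcttaa
MRPL17 (chrXIV:171337-171360, minus strand): caatcacaTGTAAATAtcattaaa
MRPL28, nearer site (chrIV:1386540-1386563, plus strand): tctcctgcTGTAAATAactgatga
MRPL3, nearer site (chrXIII:323057-323080, plus strand): tgccatttTGTAGATAgagaactc
MRPL20 (chrXI:599052-599075, minus strand): aacaatcgTGTAAATActactcta
MRPL50 (chrXIV:669722-669745, minus strand): tacaatctTGTATATAggcaacat
MRPL33, nearer site (chrXIII:842252-842275, plus strand): cttatataTGTATATAgtattatt

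As all 33 genes have the element, its presence could not differ between genes that were higher and genes that were lower after the shift. The nearer *MRPL3* site is the only one of the 41 with G at the fifth base. A cytosine at the second base before the element, a position for which Puf3 has a binding pocket, was present in 27 of the 41 sites (65.9%), as in the *MRPL4*, *MRPL38* and *MRPL20* sites, against 255 of the 920 sites of all nuclear genes (27.7%). That position was examined after the sites had been seen. In the other lists the element was found downstream of 12 of 12 further large-subunit genes, 30 of 31 small-subunit genes (96.8%) and 7 of 8 genes for mitochondrial translation factors (87.5%). The promoter side differed from this pattern. The box CCAAT, which the Hap2/3/4/5 activator of respiratory genes recognises, occurred on either strand within 250 bases upstream of the start codon in 9 of the 33 genes (27.3%), against 35.3% of nuclear genes. The ribosomal RNA processing element AAAATTTT, common upstream of genes for building cytosolic ribosomes, occurred in 0 of the 33, against 8.72% of nuclear genes. A match describes the letters of the window and does not show binding.

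**Figure D1:**
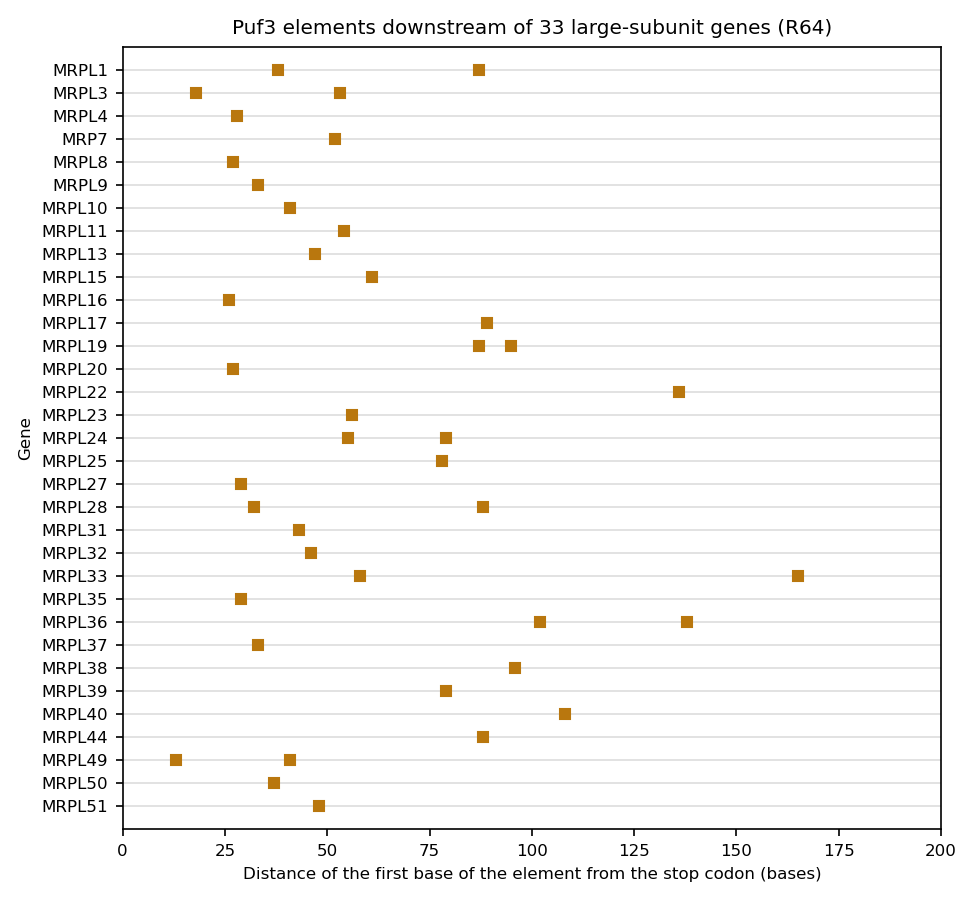
Positions of the Puf3 element downstream of the 33 genes. The x axis is the distance in bases of the first base of the element from the stop codon, each row is a gene, and each square is an element; 36 of the 41 elements lie within 100 bases and all 33 rows have at least 1.

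The 33 genes are spread over 11 chromosomes, with 6 on chromosome XIV, 5 on XIII and 4 each on II, IV and XI, and *MRPL44* alone has 2 coding exons. *MRPL19* shares 113 bases on the same strand with the open reading frame YNL184C, had estimated counts that were not whole in all 12 libraries, and its values are uncertain for that reason. *MRPL51* overlaps YPR099C on the opposite strand by 323 bases, and since the strand setting of the counting is not given in the sources used here, reads of the pair cannot be told apart.

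The smallest library held 16231552 estimated counts and the largest 26542190, and 3 counts amount to 0.113 to 0.185 CPM (counts scaled to a common library size). Counts of the 33 genes lay between 102 and 2297 in every library. *MRN1* had 0.0964 to 0.65 normalised CPM in the 6 mrn1Δ libraries, against 84.6 to 137 in the 6 wild-type libraries, and the acetate transporter gene *ADY2*, which glucose represses, averaged 261 ± 22.6 CPM in mrn1Δ respiratory and 3.73 ± 0.293 CPM in mrn1Δ fermentative, 159 ± 22.5 CPM in wild-type respiratory and 3.38 ± 0.443 CPM in wild-type fermentative libraries (SD, n = 3 each). The glucose-repressed *HXT5*, *JEN1*, *FBP1*, *PCK1*, *HXK1* and *HAP4* also had higher means in respiratory libraries of both genotypes. Genes chosen as glucose-induced were mixed. *HXT1* was lower in respiratory libraries. *HXK2* was higher, with mean CPM of 2809 against 1884 in mrn1Δ and 2899 against 1865 in wild-type. *HXT3* was higher too, with 1081 against 1032 in mrn1Δ and 1307 against 868 in wild-type. *MRN1* and the glucose-repressed genes are as the labels say. A library of the wild-type fermentative group stood apart in the genes described here. In wild-type fermentative replicate 1 the level was the highest of its group for 32 of the 33 genes, and their median lay 0.41 log2 units above the mean of the other replicates. In wild-type respiratory replicate 1 it was the highest for all 33, with a median of 0.22. Among all genes with at least 10 counts in every library, 39.6% and 34.8% were highest in these libraries. In no mrn1Δ library did more than 17 of the 33 genes lie highest in the group. The same wild-type fermentative library was highest for 31 of 31 small-subunit genes and 12 of 12 further large-subunit genes, and for 75.8% of 132 cytosolic ribosomal protein genes. Short coding sequences of up to 450 bases lay 0.24 log2 units above the other replicates in it, and those over 1500 bases fell below them by 0.14. The part of gene length in the results below was not tested. The main counts and medians that use this library are given with and without it, and the plot of changes after the shift shows every gene both ways.

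**Figure D2:**
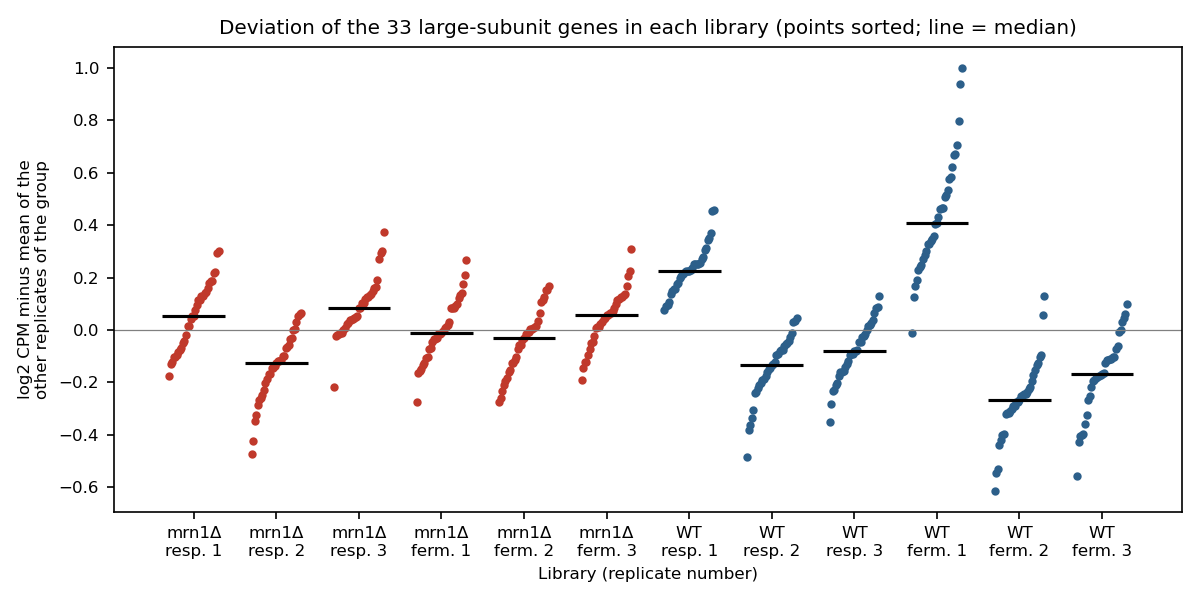
Deviation of the 33 genes in each of the 12 libraries. The y axis is the log2 CPM of a gene minus the mean of the other replicates of its group, each point is a gene sorted within its library, and the line is the median; nearly all points of wild-type fermentative replicate 1 and all points of wild-type respiratory replicate 1 lie above 0, with medians of 0.41 and 0.22.

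Levels were compared between genes in TPM, a share of all transcripts that allows for coding length. The 33 mRNAs were present at similar levels. In each group the highest mean was 2.47 to 2.82 times the lowest, and the median of the 33 means was 59.4 TPM in mrn1Δ respiratory, 41.6 TPM in mrn1Δ fermentative, 58.8 TPM in wild-type respiratory and 52.5 TPM in wild-type fermentative libraries. As TPM is a share, its values between media depend on all other genes, and the summed share of cytosolic ribosomal protein mRNAs was 130253 to 158314 TPM in respiratory and 295633 to 317133 TPM in fermentative libraries. For that reason TPM is used here only to set genes beside each other.

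*MRPL36*, encoding a bacterial-type protein, and *MRPL31*, encoding a mitochondria-specific one, had the highest mean TPM over the 4 groups. *MRPL36* had 124, 104 and 114 TPM in mrn1Δ respiratory, 63.0, 68.2 and 69.8 TPM in mrn1Δ fermentative, 111, 96.6 and 110 TPM in wild-type respiratory, and 78.0, 60.0 and 74.4 TPM in wild-type fermentative libraries. *MRPL31* had 121, 90.8 and 106 TPM in mrn1Δ respiratory, 76.9, 71.5 and 73.2 TPM in mrn1Δ fermentative, 110, 70.9 and 95.0 TPM in wild-type respiratory, and 104, 61.4 and 80.1 TPM in wild-type fermentative libraries. The replicates of these genes overlapped in 3 of the 4 groups and in mrn1Δ fermentative cells *MRPL31* lay above *MRPL36*. *MRP7*, the gene for the relative of bacterial L27, came next with a mean of 83.4 TPM over the groups, followed by *MRPL38* with 78.0 TPM.

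By mean TPM over the 4 groups the lowest levels belonged to *MRPL3* and *MRPL15*, whose proteins are mitochondria-specific and carry folds related to ribonuclease III. *MRPL3* had 53.6, 51.8 and 44.3 TPM in mrn1Δ respiratory, 31.7, 32.4 and 32.0 TPM in mrn1Δ fermentative, 49.9, 42.8 and 44.6 TPM in wild-type respiratory, and 29.3, 29.4 and 28.3 TPM in wild-type fermentative libraries. *MRPL15* had 53.1, 45.3 and 48.1 TPM in mrn1Δ respiratory, 32.7, 34.5 and 31.8 TPM in mrn1Δ fermentative, 48.0, 36.4 and 46.8 TPM in wild-type respiratory, and 38.9, 30.7 and 35.1 TPM in wild-type fermentative libraries. These genes overlapped each other in every group but wild-type fermentative, where *MRPL15* was above *MRPL3* in all libraries. *MRPL32*, *MRPL44* and *MRPL40* followed closely, with means over the groups of 40.3, 40.4 and 40.5 TPM. The lowest gene was not the same in each group, namely *MRPL44* with a mean of 41.3 TPM in mrn1Δ respiratory, *MRPL40* with 29.9 TPM in mrn1Δ fermentative, *MRPL11* with 42.0 TPM in wild-type respiratory and *MRPL3* with 29.0 TPM in wild-type fermentative libraries.

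Next the shift from glucose to ethanol and glycerol was examined in each genotype. In mrn1Δ cells 17 of the 33 genes were higher and 2 were lower in respiratory than in fermentative growth, and 14 did not pass the test (edgeR's quasi-likelihood test, adjusted p under 0.05). The background was high, since 43.2% of all genes tested were higher and 40.3% lower in this comparison. The median log2 fold change of the 33 was 0.21, with a range of −0.69 to 0.87, beside 0.05 for all genes. In wild-type cells 9 were higher, 6 lower and 18 did not pass, with 38.6% of all genes higher and 36.4% lower. The median there was 0.06, with a range of −0.66 to 0.91, beside 0.03 for all genes. Changes went in both directions. In both genotypes 8 genes were higher, namely *MRPL1*, *MRPL3*, *MRPL4*, *MRPL17*, *MRPL24*, *MRPL35*, *MRPL38* and *MRPL40*, and *MRPL20* and *MRPL50* were lower. The sign of the change was the same in both genotypes for 29 of the 33 genes.

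The wild-type counts depended on single libraries. Without wild-type fermentative replicate 1, 15 of the 33 genes were higher and 2 lower in wild-type cells, the median was 0.24, and 38.4% and 37.6% of all genes were higher and lower. Genes newly higher in that fit were *MRP7*, *MRPL9*, *MRPL10*, *MRPL16*, *MRPL22* and *MRPL36*, while *MRPL19*, *MRPL33*, *MRPL39* and *MRPL49* were no longer lower. The number higher was 5 without wild-type fermentative replicate 3 and 5 without wild-type respiratory replicate 1. The number lower was 9 without wild-type fermentative replicate 2, 1 without wild-type respiratory replicate 2 and 1 without wild-type respiratory replicate 3. Same-numbered libraries deviated together within each genotype. Under the replicate block 11 of the 33 were higher and 10 lower in wild-type cells, with *MRPL9* and *MRPL36* added to those higher and *MRPL11*, *MRPL23*, *MRPL37* and *MRPL51* to those lower. With the block and without both wild-type libraries numbered 1, which was tried after seeing the data, 15 were higher and 5 lower. Apart from the fit without wild-type fermentative replicate 1, the share of all genes called in these fits is not given here. Whether the counts moved with that share cannot be read from them.

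**Figure D3:**
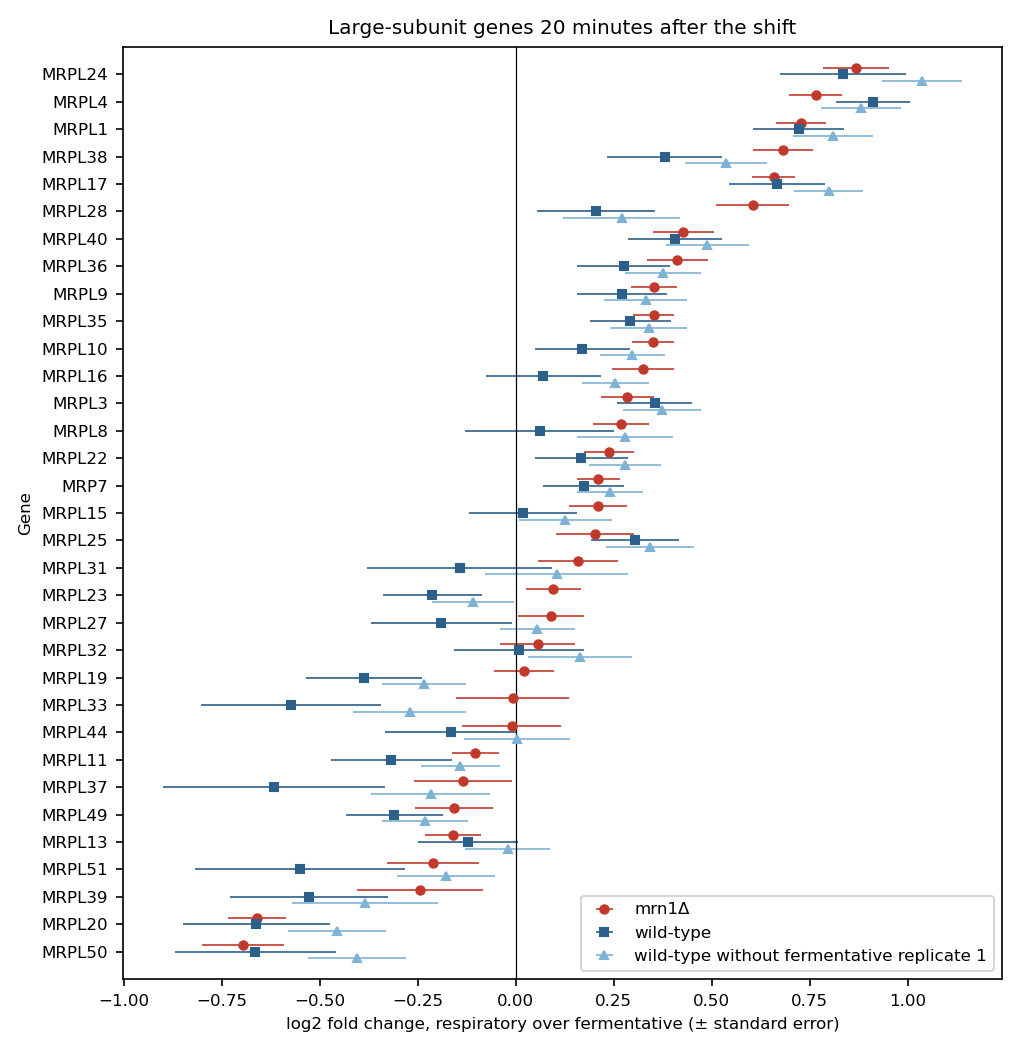
Change of the 33 genes after the shift. The x axis is the log2 fold change of respiratory over fermentative growth with its standard error, in mrn1Δ (circles), in wild-type (squares) and in wild-type without fermentative replicate 1 (triangles); *MRPL24*, *MRPL4*, *MRPL1* and *MRPL17* are at 0.66 to 0.91 in both genotypes, and *MRPL20* and *MRPL50* lie lowest.

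Among the universal and bacterial-type proteins, those with the largest increases were *MRPL24*, *MRPL4* and *MRPL1*. *MRPL24* (YMR193W), the gene for the relative of bacterial L28, had 40.1, 37.4 and 44.2 CPM in mrn1Δ respiratory against 22.8, 23.0 and 20.1 CPM in mrn1Δ fermentative libraries. It had 44.9, 38 and 40.0 CPM in wild-type respiratory against 29.1, 20.2 and 18.9 CPM in wild-type fermentative libraries. Every respiratory library lay above every fermentative one in both genotypes. The log2 fold change was 0.87 ± 0.085 in mrn1Δ (SE, edgeR adjusted p = 4.29e-06) and 0.84 ± 0.161 in wild-type (edgeR adjusted p = 0.00123).

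*MRPL4* (YLR439W) encodes the relative of bacterial L29, which sits at the tunnel exit where nascent chains leave the ribosome. It had 48.2, 48.6 and 53.1 CPM in mrn1Δ respiratory against 27.1, 29.6 and 30.9 CPM in mrn1Δ fermentative libraries. Wild-type respiratory libraries held 58.1, 50.3 and 48.3 CPM against 27.5, 29.3 and 26.2 CPM in wild-type fermentative libraries. The groups did not overlap, and here wild-type fermentative replicate 1 lay between the other replicates. The log2 fold change was 0.77 ± 0.067 in mrn1Δ (edgeR adjusted p = 1.84e-06) and 0.91 ± 0.094 in wild-type (edgeR adjusted p = 1.82e-05).

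*MRPL1* (YDR116C) encodes the protein of the mobile L1 stalk, past which tRNAs leave the ribosome. Its levels were 51.7, 46.0 and 49.5 CPM in mrn1Δ respiratory against 28.0, 29.2 and 30.9 CPM in mrn1Δ fermentative libraries. In wild-type they were 58.6, 50.9 and 47.5 CPM in respiratory against 36.1, 29.5 and 29.0 CPM in fermentative libraries. Again no respiratory library overlapped a fermentative one, with a log2 fold change of 0.73 ± 0.063 in mrn1Δ (edgeR adjusted p = 1.77e-06) and 0.72 ± 0.117 in wild-type (edgeR adjusted p = 0.000373).

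*MRPL38* (YKL170W), the gene for the relative of bacterial L14, had 30.3, 30.1 and 32.8 CPM in mrn1Δ respiratory against 20.4, 17.3 and 19.8 CPM in mrn1Δ fermentative libraries, and 31.5, 27.7 and 26.1 CPM in wild-type respiratory against 26.6, 18.9 and 19.6 CPM in wild-type fermentative libraries. The wild-type groups overlapped through fermentative replicate 1. Its log2 fold change was 0.68 ± 0.078 in mrn1Δ (edgeR adjusted p = 1.44e-05) and 0.38 ± 0.145 in wild-type (edgeR adjusted p = 0.0391), and the wild-type value was 0.54 without fermentative replicate 1. The wild-type call was lost without fermentative replicate 2 or 3, without respiratory replicate 1 or 2, and with upper-quartile factors. *MRPL40*, whose protein also lies at the tunnel exit, was higher by 0.43 ± 0.078 in mrn1Δ and 0.41 ± 0.119 in wild-type on the log2 scale, and its wild-type call was lost without fermentative replicate 3 or respiratory replicate 1.

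Among the mitochondria-specific proteins, *MRPL17* (YNL252C) rose the most in both genotypes. It had 39.7, 38.2 and 38.3 CPM in mrn1Δ respiratory against 24.1, 23.9 and 25.0 CPM in mrn1Δ fermentative libraries. Wild-type respiratory libraries had 39.9, 38 and 36.8 CPM, against 28.6, 21.4 and 21.8 CPM in wild-type fermentative libraries. The groups were well separated. The log2 fold change was 0.66 ± 0.054 in mrn1Δ (edgeR adjusted p = 1.15e-06) and 0.67 ± 0.122 in wild-type (edgeR adjusted p = 0.000812). *MRPL3* and *MRPL35*, which encode further mitochondria-specific proteins, were higher by smaller amounts, *MRPL3* by 0.28 ± 0.068 in mrn1Δ and 0.35 ± 0.096 in wild-type and *MRPL35* by 0.35 ± 0.051 in mrn1Δ and 0.29 ± 0.103 in wild-type on the log2 scale. The wild-type call of *MRPL35* was lost without fermentative replicate 2 or 3 and without respiratory replicate 1 or 3.

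*MRPL20* and *MRPL50* went the other way. *MRPL20* (YKR085C), a mitochondria-specific gene, had 20.2, 17.8 and 19.7 CPM in mrn1Δ respiratory against 31.2, 28.3 and 30.6 CPM in mrn1Δ fermentative libraries, and 23.2, 17.7 and 18.1 CPM in wild-type respiratory against 39.7, 25.0 and 28.1 CPM in wild-type fermentative libraries. Every respiratory library lay below every fermentative one. The log2 fold change was −0.66 ± 0.073 in mrn1Δ (edgeR adjusted p = 1.2e-05) and −0.66 ± 0.187 in wild-type (edgeR adjusted p = 0.0109).

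*MRPL50* (YNR022C), the gene for the relative of bacterial L9, had 13.5, 11.1 and 13.4 CPM in mrn1Δ respiratory against 22.2, 18.7 and 19.7 CPM in mrn1Δ fermentative libraries. In wild-type it had 15.5, 12.1 and 12.9 CPM in respiratory against 28.6, 17.9 and 17.2 CPM in fermentative libraries. These groups did not overlap either. Its log2 fold change was −0.69 ± 0.104 in mrn1Δ (edgeR adjusted p = 0.000119) and −0.66 ± 0.206 in wild-type (edgeR adjusted p = 0.0165). Without wild-type fermentative replicate 1 the wild-type values were −0.46 for *MRPL20* and −0.40 for *MRPL50*, and both genes still passed the test. The wild-type call of *MRPL50* was lost without respiratory replicate 2 (−0.59) and without respiratory replicate 3 (−0.63).

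**Figure D4:**
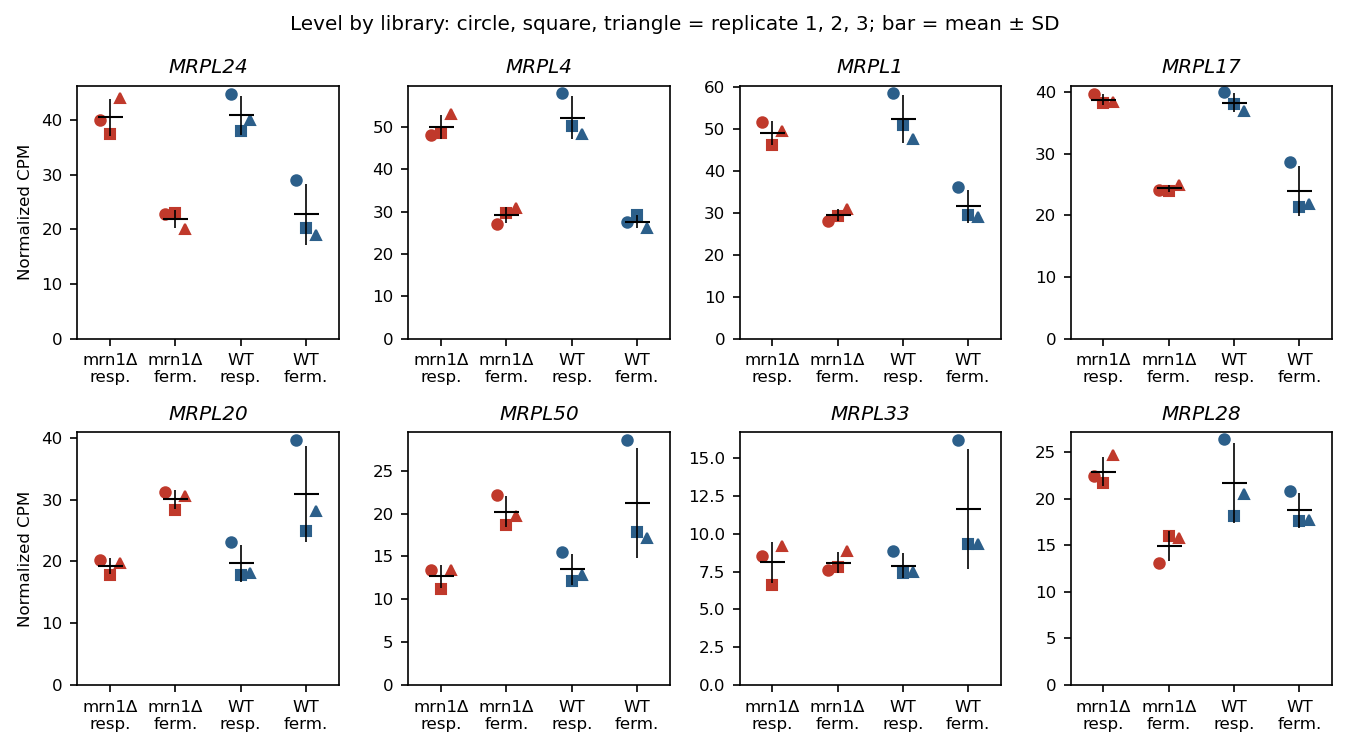
Normalised CPM of 8 of the genes in every library. Circles, squares and triangles are replicates 1, 2 and 3, bars are the mean and SD, and the y axes start at 0; *MRPL24*, *MRPL4*, *MRPL1* and *MRPL17* are higher in respiratory libraries of both genotypes, *MRPL20* and *MRPL50* lower, and for *MRPL33* the wild-type fermentative circle is at 16.2 CPM beside 9.35 and 9.33 CPM.

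Passing the test in mrn1Δ cells only were 9 genes, all of them higher, namely *MRP7*, *MRPL8*, *MRPL9*, *MRPL10*, *MRPL15*, *MRPL16*, *MRPL22*, *MRPL28* and *MRPL36*. *MRPL28* (YDR462W), a mitochondria-specific gene, had the largest of these changes. Its levels were 22.5, 21.7 and 24.7 CPM in mrn1Δ respiratory against 13.1, 16 and 15.8 CPM in mrn1Δ fermentative libraries, and 26.5, 18.2 and 20.6 CPM in wild-type respiratory against 20.9, 17.6 and 17.8 CPM in wild-type fermentative libraries. The wild-type groups overlapped. The log2 fold change was 0.60 ± 0.094 in mrn1Δ (edgeR adjusted p = 0.000155) and 0.21 ± 0.15 in wild-type (edgeR adjusted p = 0.242). The other 8 had values of 0.21 to 0.41 in mrn1Δ and 0.02 to 0.28 in wild-type. They include *MRPL9*, *MRPL10*, *MRPL16* and *MRPL22*, which encode relatives of universal ribosomal proteins, and *MRP7*, whose bacterial relative reaches towards the peptidyl transferase centre. Under the replicate block *MRPL9* and *MRPL36* were higher in wild-type cells as well. The mrn1Δ call of *MRPL15* was lost with DESeq2 and without mrn1Δ fermentative replicate 1 or 3 or respiratory replicate 1 or 3. With all 12 libraries in 1 fit, the mrn1Δ calls of *MRPL8* and *MRPL15* were lost. A difference between the genotypes does not follow from these calls, and none of the 9 genes passed the test of the difference given below.

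Passing in wild-type cells only were 5 genes, with *MRPL25* higher and *MRPL19*, *MRPL33*, *MRPL39* and *MRPL49* lower. *MRPL33* (YMR286W), the gene for the relative of bacterial L30, had 8.56, 6.62 and 9.22 CPM in mrn1Δ respiratory against 7.58, 7.81 and 8.87 CPM in mrn1Δ fermentative libraries, and 8.84, 7.40 and 7.45 CPM in wild-type respiratory against 16.2, 9.35 and 9.33 CPM in wild-type fermentative libraries. The wild-type change of −0.57 ± 0.229 (edgeR adjusted p = 0.0456) was −0.27 without fermentative replicate 1, when it no longer passed. The call of *MRPL33* was also lost without respiratory replicate 1, 2 or 3 and with library totals alone. *MRPL39* (YML009C), for the relative of bacterial L33, had 7.17, 5.35 and 6.78 CPM in wild-type respiratory against 11.1, 7.12 and 9.52 CPM in wild-type fermentative libraries. These overlapped. Its change of −0.53 ± 0.201 (edgeR adjusted p = 0.0381), that of −0.39 ± 0.148 for *MRPL19*, whose protein belongs to the base of the stalk that recruits translation factors, and that of −0.31 ± 0.124 for *MRPL49*, for the relative of bacterial L21, likewise did not pass without fermentative replicate 1. The calls of *MRPL19*, *MRPL39* and *MRPL49* were also lost without respiratory replicate 2 or 3 and with library totals alone. Those of *MRPL39* and *MRPL49* were lost without fermentative replicate 3 too. *MRPL25*, a mitochondria-specific gene, had a change of 0.20 ± 0.10 in mrn1Δ (edgeR adjusted p = 0.0853) and 0.30 ± 0.113 in wild-type (edgeR adjusted p = 0.0348). Its wild-type call was lost with DESeq2, with upper-quartile and RLE factors, and without fermentative replicate 2 or 3 or respiratory replicate 1 or 3.

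Fitted on the 6 libraries of each genotype with TMM factors and no replicate block, edgeR gave no call in either genotype for *MRPL11*, *MRPL13*, *MRPL23*, *MRPL27*, *MRPL31*, *MRPL32*, *MRPL37*, *MRPL44* and *MRPL51*. With the block *MRPL51* was lower in mrn1Δ, and *MRPL11*, *MRPL23*, *MRPL37* and *MRPL51* were lower in wild-type cells. Their values in mrn1Δ lay between −0.21 for *MRPL51* and 0.16 for *MRPL31*. In wild-type they lay between −0.62 for *MRPL37* and 0.01 for *MRPL32*, whose protein is matured by the m-AAA protease of the inner membrane. *MRPL37*, with 10.8, 9.55 and 7.95 CPM in wild-type respiratory against 21.4, 11 and 10.4 CPM in wild-type fermentative libraries, and *MRPL51*, with 17.2, 14.9 and 13.6 CPM in wild-type respiratory against 32.4, 15.8 and 18.1 CPM in wild-type fermentative libraries, show how far fermentative replicate 1 lay from the others in the short genes. By class, in mrn1Δ cells 12 of the 20 universal and bacterial-type genes were higher and 1 lower, and 5 of the 13 mitochondria-specific genes were higher and 1 lower. In wild-type cells the counts were 5 higher and 5 lower of the 20, and 4 higher and 1 lower of the 13. Without fermentative replicate 1 they were 11 higher and 1 lower of the 20, and again 4 higher and 1 lower of the 13. The difference between the classes was not tested.

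The size and direction of the change moved with coding length, which the choice of genes did not use. Among the 10 genes of up to 450 bases the median log2 fold change was −0.01 in mrn1Δ and −0.36 in wild-type cells. It was 0.21 and 0.06 among the 17 genes of over 450 and up to 900 bases, and 0.32 and 0.23 among the 6 longer ones. Without wild-type fermentative replicate 1 the wild-type medians were −0.09, 0.25 and 0.32, in the same order of length. All genes of these lengths had medians of −0.13, 0.03 and 0.08 in mrn1Δ cells and −0.37, −0.06 and 0.12 in wild-type cells. Without that library the wild-type medians of all genes were −0.21, −0.03 and 0.06. These medians rose from short to long as in the 33 genes, but the correlation with length over all genes was weaker. Over the 33 genes Spearman's rho of log2 fold change with length was 0.53 in mrn1Δ and 0.63 in wild-type cells, and 0.59 in wild-type without fermentative replicate 1. Over all genes it was 0.02, 0.12 and 0.06. The points share libraries and genes are not independent replicates, so these are descriptions. Genes with 2 Puf3 elements had a median change of 0.35 in mrn1Δ and 0.24 in wild-type cells (8 genes), and genes with 1 element 0.20 in mrn1Δ and 0.02 in wild-type cells (25 genes). Without wild-type fermentative replicate 1 the wild-type medians were 0.32 with 2 elements and 0.16 with 1. This difference was not tested.

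The shift in the rest of the translation machinery was set beside these values. Of 31 small-subunit genes, 18 were higher and 6 lower in mrn1Δ with a median log2 fold change of 0.31, and 13 were higher and 7 lower in wild-type with a median of 0.08, or 13 and 6 with a median of 0.22 without fermentative replicate 1. Of 12 further large-subunit genes, 8 were higher and 1 lower in mrn1Δ (median 0.34), and 3 were higher and 2 lower in wild-type (median 0.06), or 6 and 1 without that library (median 0.24). *MRP20*, encoding the large-subunit protein that is a relative of bacterial L23, had a change of 1.38 ± 0.061 in mrn1Δ and 1.32 ± 0.104 in wild-type, above every one of the 33 genes. All 8 genes for mitochondrial translation factors were higher in both genotypes, with medians of 0.85 in mrn1Δ and 0.76 in wild-type, as for the elongation factor gene *MEF2* with 1.53 in mrn1Δ and 1.44 in wild-type. Assembly and anchoring factors were mixed, with 3 of 11 higher and 4 lower in mrn1Δ and 3 higher and 3 lower in wild-type. Cytosolic ribosomal protein genes fell, with 129 of 132 lower in mrn1Δ (median −1.57) and 127 lower in wild-type (median −1.45). The median of the 33 large-subunit genes lay near that of the small-subunit genes and far from that of the cytosolic ribosomal protein genes. Genes outside the mitochondrial ribosome that carry the Puf3 element in the same window had median changes of 0.07 in mrn1Δ and 0.05 in wild-type (763 genes each), beside 0.03 and 0.03 for genes without it.

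*PUF3* itself (YLL013C) had 246, 271 and 240 CPM in mrn1Δ respiratory against 173, 184 and 190 CPM in mrn1Δ fermentative libraries, and 259, 250 and 226 CPM in wild-type respiratory against 117, 167 and 149 CPM in wild-type fermentative libraries. Its mRNA was higher after the shift in both genotypes, by 0.46 ± 0.060 in mrn1Δ (edgeR adjusted p = 4.63e-05) and 0.76 ± 0.126 in wild-type (edgeR adjusted p = 0.000437) on the log2 scale.

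To ask whether loss of Mrn1 changed these mRNAs, mrn1Δ was compared with wild-type in each medium. In respiratory growth 0 of the 33 genes were higher and 0 lower by edgeR's quasi-likelihood test, while 6.79% of all genes tested were higher and 7.83% lower. DESeq2 also called 0, and 2 genes had an unadjusted p under 0.05. Log2 fold changes lay between −0.20 and 0.20 with a median of 0.04, beside 0.00 for all genes, with 19 positive and 14 negative. The median was −0.01 to 0.11 with 1 library left out, and without wild-type respiratory replicate 1, in which all 33 genes lay highest, it was 0.11 with 29 positive and 4 negative. The smallest p belonged to *MRPL27* (YBR282W), a mitochondria-specific gene. It had 20.2, 22.4 and 23.2 CPM in mrn1Δ respiratory against 20.2, 18.7 and 19.3 CPM in wild-type respiratory libraries, and the groups overlapped at the lowest mrn1Δ value. Its log2 fold change was 0.18 ± 0.081 (edgeR adjusted p = 0.156).

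In fermentative growth 0 of the 33 were higher and 0 lower, against a background of 0.588% of all genes higher and 0.328% lower. DESeq2 called 0 here too, and 2 genes had an unadjusted p under 0.05. The values leaned to one side, since 29 of the 33 were negative, with a median of −0.11 beside −0.02 for all genes, and a range from −0.54 for *MRPL33* to 0.13 for *MRPL3*. Without wild-type fermentative replicate 1 20 were positive and 13 negative, with a median of 0.03, a range of −0.24 to 0.24 and again 0 called. *MRPL28* had the smallest p, with 13.1, 16 and 15.8 CPM in mrn1Δ fermentative against 20.9, 17.6 and 17.8 CPM in wild-type fermentative libraries. All mrn1Δ values lay below all wild-type values, but the log2 fold change of −0.34 ± 0.117 did not pass (edgeR adjusted p = 0.241), and it was −0.24 without wild-type replicate 1. Spearman's rho of the fermentative difference with coding length was 0.65 over the 33 genes and 0.47 over all genes with all libraries, and 0.42 and 0.20 without that library.

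**Figure D5:**
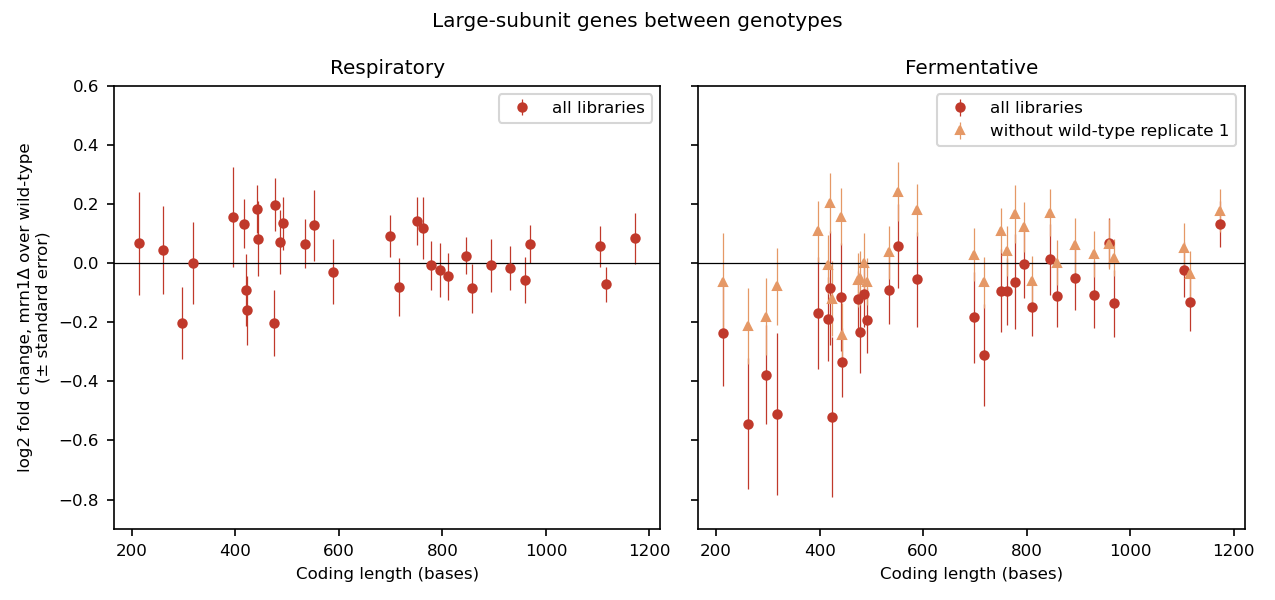
Difference between genotypes against coding length. The y axes are the log2 fold change of mrn1Δ over wild-type with its standard error in respiratory and in fermentative growth, the x axes the coding length in bases, and triangles leave out wild-type fermentative replicate 1; respiratory values lie between −0.20 and 0.20, and the fermentative median of −0.11 is 0.03 without that library.

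The shifts were then compared between genotypes with an interaction term, fitted to the 12 libraries together. No gene of the 33 passed by edgeR's quasi-likelihood test, with 0 higher and 0 lower, against 1.12% of all genes higher and 2.11% lower in this test. DESeq2 called 0 and 3 genes had an unadjusted p under 0.05. The interaction, positive where the log2 change in mrn1Δ exceeded that in wild-type, was positive for 28 of the 33 genes with a median of 0.18, beside 0.01 for all genes. Without wild-type fermentative replicate 1 it was positive for 16 and negative for 17, with a median of −0.00, and 12 of the 33 values changed sign. With both wild-type libraries numbered 1 left out, tried after seeing the data, 3 of the 33 values changed sign and 0 were called. The lean to positive values thus depended on which libraries were left out. *MRPL19* had the smallest p. It had 20.6, 18.8 and 20.2 CPM in mrn1Δ respiratory against 19.4, 20.4 and 18.3 CPM in mrn1Δ fermentative libraries, and 19.2, 16.2 and 16.7 CPM in wild-type respiratory against 27.6, 19.5 and 20.6 CPM in wild-type fermentative libraries. The interaction was 0.43 ± 0.170 (edgeR adjusted p = 0.181), and 0.24 without wild-type fermentative replicate 1. Of the further large-subunit genes 12 of 12 had a positive interaction, with a median of 0.21 and 0 called, and without wild-type fermentative replicate 1 it was positive for 7 of 12 with a median of 0.01. *RTC6*, a large-subunit gene beside *MRN1*, had 13.5, 10.8 and 13 CPM in mrn1Δ respiratory against 12.1, 9.03 and 11.2 CPM in wild-type respiratory libraries, and 13.4, 13.2 and 14.2 CPM in mrn1Δ fermentative against 19.0, 13.4 and 12.9 CPM in wild-type fermentative libraries. It did not pass in either medium. The interaction of small-subunit genes was positive for 27 of 31 with a median of 0.16, and for 18 of 31 with a median of 0.02 without that library. In both fits 0 were called.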

How the data were processed

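RNA was extracted with phenol-chloroform, ribosomal RNA was depleted (QIAseq FastSelect), and libraries (NEBNext Ultra II) were sequenced single-end. For each coding sequence and library the authors gave an estimated count and its TPM. Their processing notes name kallisto 0.44.0 and the R64 genome, and the strand setting is not given in the sources used here. Estimated counts, not whole in 623 genes, were rounded. Of 5917 identifiers, 5911 matched the R64 RefSeq annotation, from which sequences were read. Each comparison was fitted on its own 6 libraries, and the interaction on 12, with edgeR 4.0.16 (R 4.3.3, TMM, filterByExpr, robust quasi-likelihood test). Benjamini-Hochberg adjustment ran over all genes tested, and genes with an adjusted p under 0.05 were called. CPM were scaled with TMM factors, except that the CPM equal to 3 counts used library totals alone. The paper's methods name no test for these data. Same-numbered libraries were correlated in their deviations from the group means in both shifts (r of 0.245, 0.195 and 0.271 in mrn1Δ, and 0.260, 0.271 and 0.187 in wild-type), so the replicate numbers appear to pair them. The main fits, with their standard errors and adjusted p, leave this pairing out. Counts under the replicate block are given beside them. Alternatives were DESeq2 1.42.0, other normalizations, filters and thresholds, the replicate block, 1 fit of 12 libraries, and leaving out each library. The scripts were tested on simulated data. Figures were drawn with matplotlib (Python).

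The genes, lists and tests were chosen with earlier results of these data known. Values per library are given for up to 4 called genes in each direction, the gene with the smallest p where none was called, and the 2 highest and 2 lowest by TPM. Those of *MRPL37*, *MRPL39* and *MRPL51* were chosen after their values were seen.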

Additional observations from a re-analysis of the deposited data

How the results depend on the processing

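Called genes kept their direction under every alternative run. In the wild-type shift the number of the 33 genes lower was 6, and it was 2 with library totals alone, 10 with the replicate block and 10 with all 12 libraries in one fit. The number higher was 9, and it was 4 with an absolute log2 fold change of at least 0.5 and 15 with both wild-type libraries numbered 1 left out under the replicate block. In the mrn1Δ shift the number higher was 17, and 6 with that minimum change. Leaving out each library in turn gave 16 to 19 higher and 2 to 4 lower in the mrn1Δ shift, and 5 to 15 higher and 1 to 9 lower in the wild-type shift. DESeq2 gave 16 higher and 3 lower in mrn1Δ and 8 higher and 8 lower in wild-type. The replicate block gave 17 higher and 3 lower in the mrn1Δ shift, and 0 in both genotype comparisons and the interaction. A block within each genotype, tried after seeing the data, also gave 0 in the interaction. Between genotypes, same-numbered libraries had correlations of 0.023, 0.146 and −0.145 in respiratory growth. In fermentative growth they had 0.210, 0.204 and 0.075, and differently numbered libraries had −0.191 to 0.047. Whether the numbers pair the genotypes was not tested. Each alternative and each library left out also gave 0 calls in both genotype comparisons and the interaction. Apart from the minimum change and the libraries left out, the cause of these moves was not tested. The share of all genes called under each alternative is not given here, so whether the counts moved with it cannot be read from them. Scaling by library totals moved the fitted median of all genes in the mrn1Δ shift to 0.22 in place of 0.05, and that of the 33 to 0.38 in place of 0.21. The order of levels by CPM per kilobase had a Spearman agreement of 0.97 with that by TPM. The replicate SD of the median log2 CPM of the 33 genes was 0.15. It is the spread of single libraries and not a limit of detection. With 3 libraries a group, small differences and some larger ones may not be resolved, and 0 calls do not show equal levels.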
